A study of Mus musculus with 11 samples.

Results

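Conventional dendritic cells type 1 (cDC1) were described in single-cell RNA libraries of mouse kidney, and 519 of 45454 barcodes kept were counted as members. A barcode was kept with at least 500 UMIs (unique molecular identifiers, each standing for 1 captured transcript), at least 200 genes and at most 30% mitochondrial UMIs. It counted as cDC1 when at least 3 of the 7 genes Xcr1, Clec9a, Wdfy4, Cadm1, Naaa, Tlr3 and Ifi205 were detected together with Cd74, when fewer than 2 of the complement genes C1qa, C1qb and C1qc were detected, and when the T cell genes Cd3e and Cd3d, the B cell gene Cd79b and the epithelial gene Epcam were all at 0. The members fell into 10 barcodes from 5 control libraries, 277 from 3 UIR libraries and 232 from 3 UUO libraries.

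cDC1 are the dendritic cells that take up material from dead cells and present it to CD8+ T cells on MHC class I, the step called cross-presentation. They arise from bone marrow precursors under the growth factor Flt3l and need the transcription factors Irf8 and Batf3. Clec9a binds actin filaments exposed by dead cells, Wdfy4 is required for cross-presentation, Tlr3 senses double-stranded RNA, and Xcr1 is the receptor for Xcl1, a chemokine released by NK cells and activated CD8+ T cells.

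The study compared the fibrotic kidney after ischemia with the kidney after a blocked ureter. Male C57Bl/6 mice of 10 weeks had the left renal pedicle clamped for 30 minutes (unilateral ischemia-reperfusion, UIR) or the left ureter tied off for good (unilateral ureteral obstruction, UUO). The injured kidney was taken on day 28, and control kidneys came from untouched mice matched for strain, sex and age, so that all groups shared a wild-type background without a transgene. Kidneys were dissociated with a protease that works in the cold, and libraries were made on the 10x Chromium platform.

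The control libraries were labelled Ctrl, N1, N2, AN1 and AN2, and each injury had 1 unnumbered library and libraries numbered 1 and 2. All library totals lay between 49503312 and 117043590 UMIs over all barcodes, with the 3 UUO libraries lowest at 49503312 to 60918546. No member barcode was shared between any 2 of the 11 libraries. The study's methods give 3 mice per injury model for these libraries and 5 control mice, as many as there are libraries, but the labels do not tie a library to an animal, so the spread below is the spread between libraries. Each label set of controls (Ctrl, N and AN) held controls alone and the injured libraries carry no batch label, so a batch and an injury cannot be told apart.

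Detection of the 7 genes describes the members and follows from the rule. Xcr1 or Clec9a, the most specific of the 7, was detected in 418 of 519 members, and 278 members had both. Naaa was detected in 504 members, Wdfy4 in 457, Clec9a and Ifi205 in 374 each, Xcr1 in 322, Tlr3 in 311 and Cadm1 in 279. All 7 genes were detected in 165 members and exactly 3 in 162, so the counts peaked at both ends of the allowed range. Just outside the rule lay 560 barcodes with 2 of the 7 genes that met every other criterion, of which 68 had Xcr1 or Clec9a. Just inside it, 79 of the 162 barcodes with 3 genes had one of these receptors.

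**Figure D1:**
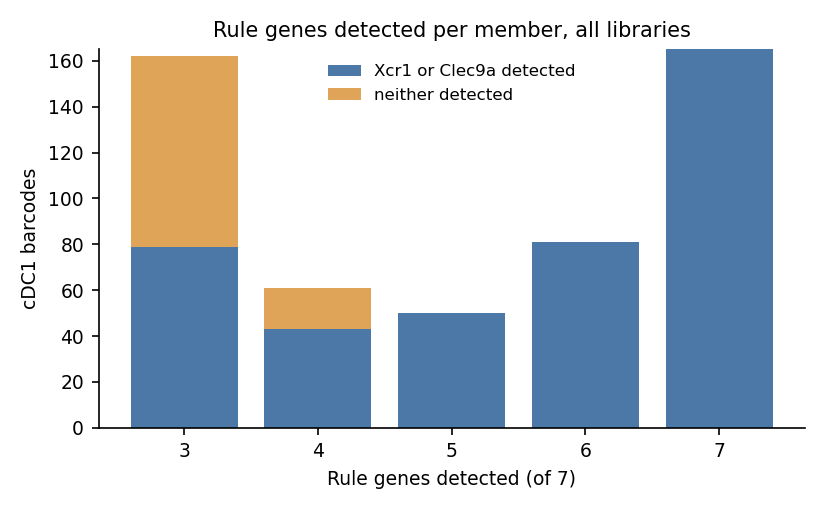
Number of rule genes detected (x axis, of 7) against the number of cDC1 barcodes (y axis), over all libraries. Blue marks members with Xcr1 or Clec9a and orange members with neither. The tallest bars stand at 7 genes (165 members) and 3 genes (162 members), and the 101 members with neither receptor all had 3 or 4 genes.

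The 101 members with neither Xcr1 nor Clec9a carried far less of the other cDC1 genes, at a like depth (median 12593 UMIs, against 13329.5 in members with a receptor). In the 6 injured libraries the summed level of 27 cDC1 identity genes was 26494 to 30920 CPM (a gene's share of all UMIs summed over the members of a library, scaled to a common total) in members with a receptor, and 4402 to 10774 CPM in members without. The cDC2 gate, defined with the same exclusions and genes of type 2 conventional dendritic cells, stood at 6524 to 8595 CPM. Cst3 alone made up most of these sums. It was at 21276.5 to 25719.5 CPM in members with a receptor, 2941 to 9444 CPM in those without and 5344 to 7669 CPM in the cDC2 gate. Irf8 was at 1678 CPM in the pooled members with a receptor and at 102 CPM in those without. The lysosomal enzyme gene Ppt1 was at 941 against 99.4 CPM, and Itgae, which encodes the integrin CD103, at 198 against 19.2 CPM. Members without a receptor held more cDC2 RNA, at 2279 to 4465 CPM over the cDC2 list against 516 to 1517 CPM in members with one. The cDC2 gate, set in part on genes of this list, held 4025 to 5081 CPM, which overlapped with members without a receptor. Members without a receptor were still above the cDC2 gate of the same library for some of these genes in some libraries. Rab7b was at 21.5 to 27.7 CPM against 4.20 to 8.15 CPM in UIR library 1 and the 3 UUO libraries. It was below the cDC2 gate in the other UIR libraries (0 and 6.56 CPM against 4.92 and 9.05 CPM). The macrophage gate held Rab7b at 78.5 to 112.5 CPM, above members without a receptor in all 6 libraries. Identity genes outside the rule thus went with the label for members with a receptor, while the remainder held them at far lower levels. The remainder made up 9.80%, 14.3% and 19.0% of members after UIR, 23.3%, 27.5% and 22.5% after UUO, without overlap, and 1 of 10 control members.

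RNA of other kidney cells stood highest among the members without a receptor in single libraries. The 9 proximal tubule genes summed to 14806 CPM in these 5 members of the unnumbered UIR library, against 776 CPM in its members with a receptor. The 6 endothelial genes summed to 4377 CPM in these 9 members of UUO library 2, against 17.7 CPM with a receptor. RNA of other leukocytes was summed over the members as a whole. The 9 macrophage genes not used in a gate summed to 845 to 1102 CPM, against 686 to 968 CPM in the cDC2 gate and 33039 to 38853 CPM in the macrophage gate (all 3 C1q genes detected). The monocyte list summed to 899 to 1044 CPM after UIR and 1076 to 1595 CPM after UUO, which overlapped with cDC2 (792 to 1962 CPM) and macrophages (566 to 1268 CPM). T and NK cell genes summed to 2.83 to 20.6 CPM, neutrophil genes to 0 to 11 CPM, and the B cell list to 140 to 238 CPM, with Cd79a at 0 in all injured members. The rule required Cd3e, Cd3d and Cd79b at 0, so low levels of T and B cell genes follow in part from it. The list of plasmacytoid dendritic cells summed to 246 to 337 CPM after UIR and 443 to 516 CPM after UUO, without overlap, and its marker Siglech reached 38.3 CPM at most.

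**Figure D2:**
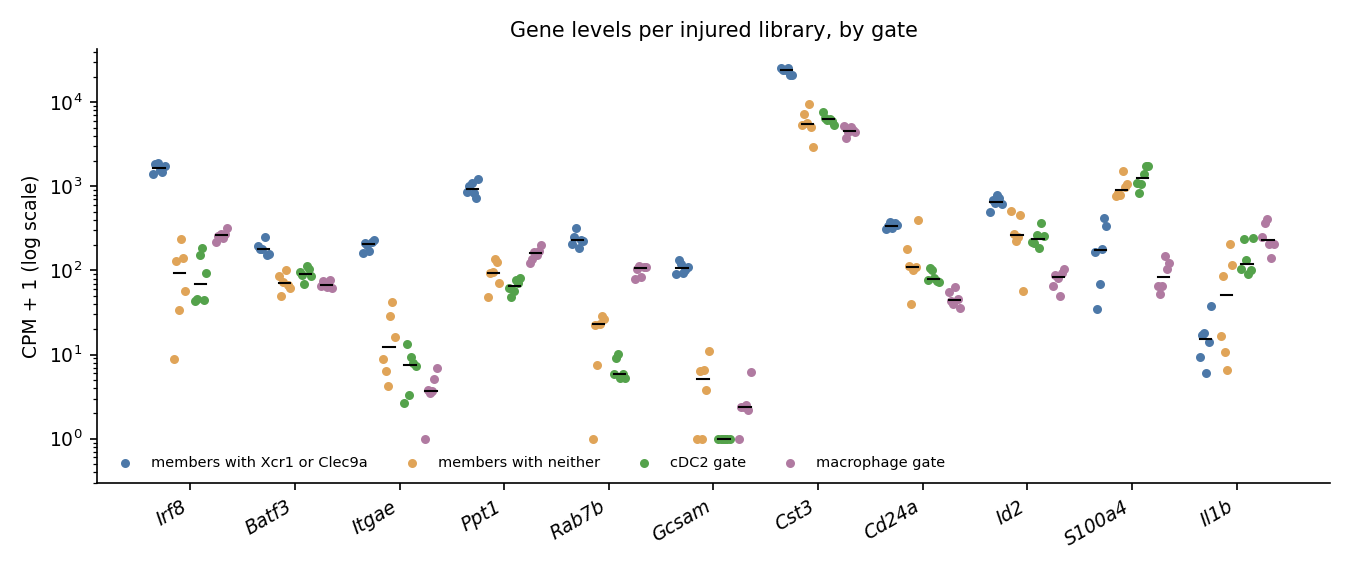
Level of 11 genes in CPM + 1 on a log scale (y axis) in 4 sets of barcodes, 1 point per injured library (3 UIR, 3 UUO) and a black bar at the median. Irf8, Itgae, Ppt1, Rab7b, Gcsam and Cst3 were higher in members with Xcr1 or Clec9a than in the 3 other sets in all 6 libraries, while Id2, Cd24a and Il1b did not separate members with and without a receptor in every library.

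cDC1 made up a small share of barcodes kept in the control libraries and a larger share in every injured library. The control libraries held 3 (Ctrl), 0 (N1), 3 (N2), 2 (AN1) and 2 (AN2) members, or 0.0851%, 0%, 0.141%, 0.0944% and 0.0938% of barcodes kept. The 0 of 2010 barcodes in N1 allows a share of up to 0.149% (3 counts). The UIR libraries held 51, 126 and 100 members (1.15%, 1.56% and 1.67%), and the UUO libraries 90, 102 and 40 members (1.83%, 1.73% and 0.947%). Every injured library lay above every control library. The mean was 0.0829% ± 0.0512 (SD, n = 5) in control, 1.46% ± 0.277 (SD, n = 3) after UIR and 1.5% ± 0.482 (SD, n = 3) after UUO. The exact two-sided permutation test gave p = 0.0357 for each injury against control, the smallest value that 3 against 5 libraries allow. Adjusted over the 6 comparisons of shares with control it was 0.0536, which misses 0.05. UUO and UIR differed by 0.0393 percentage points (exact permutation p = 0.9), and 3 against 3 libraries cannot go below 0.1. The share also moves with the number of other barcodes kept. With a mitochondrial limit of 50% in place of 30%, barcodes kept rose from 11914 to 26147 in control. They rose from 18486 to 26590 after UIR and from 15054 to 15891 after UUO. The part of a loss of proximal tubule cells in the share was not tested.

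Immune barcodes (Ptprc detected, Epcam at 0) numbered 85 to 132 per control library, 845 to 1899 after UIR and 1582 to 1916 after UUO, so cDC1 were also set against them. cDC1 were 3.19%, 0%, 3.53%, 1.74% and 1.52% of immune barcodes in control, 6.04%, 6.64% and 5.49% after UIR, and 5.69%, 5.32% and 2.51% after UUO. All UIR libraries lay above the controls, whereas UUO library 2 lay within them. The difference from control was 4.06 percentage points for UIR (exact permutation p = 0.0357, adjusted 0.0536; 1.69 points and p = 0.143 with every barcode thinned to 500 UMIs) and 2.51 for UUO (exact permutation p = 0.107, adjusted 0.107). The 0 of 117 immune barcodes in N1 allows a share of up to 2.56% (3 counts), and the exact (Clopper-Pearson) 95% interval in N2 reached from 0.734% to 9.97%. Limit and interval cover counting error only.

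Among conventional dendritic barcodes (cDC1 and cDC2 gates together) cDC1 made up 51%, 60.3% and 58.5% after UIR and 45.7%, 57.6% and 38.5% after UUO. The controls stood at 27.3%, 0%, 50%, 25% and 25%, from 6 to 11 barcodes each. All UIR libraries lay above the controls (31.1 percentage points, exact permutation p = 0.0357, adjusted 0.0536), and 2 of 3 UUO libraries fell below the highest control (21.8 percentage points, exact permutation p = 0.107, adjusted 0.107). The difference in this share depended on how both gates were set. The C1q limit alone removed 359 barcodes that met the rest of the rule, 16 in control, 162 in UIR and 181 in UUO. The cDC2 gate carried the same limit, and without it that gate grew from 478 to 930 barcodes over all libraries. Where Xcr1 or Clec9a was required, barcodes with at least 3 rule genes and no receptor entered neither gate. Without the C1q limit and with Xcr1 or Clec9a required, the mean difference of the dendritic share from control was 9.21 percentage points for UIR (exact permutation p = 0.25) and -0.838 for UUO. With the same change, the share of immune barcodes ran from 2.27% to 6.38% in control, 6.63% to 7.85% after UIR and 3.70% to 5.69% after UUO.

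**Figure D3:**
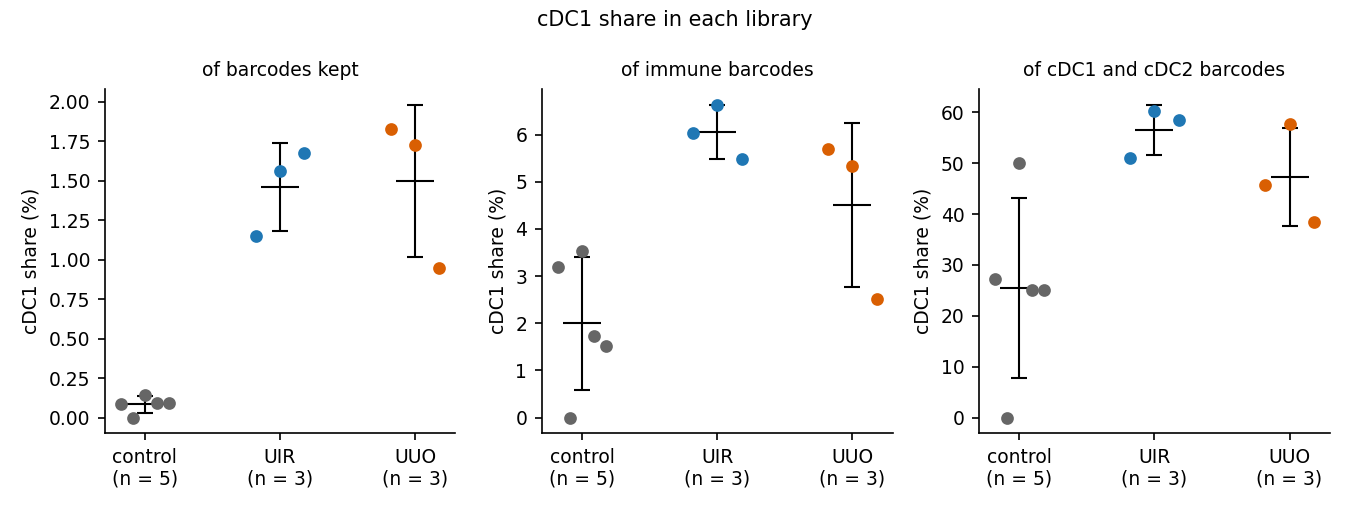
cDC1 as a percentage of barcodes kept, of immune barcodes and of cDC1 and cDC2 barcodes together (3 panels, y axes in %), 1 point per library. Bars give the mean and SD of 5 control, 3 UIR and 3 UUO libraries. Injured libraries do not overlap with controls in the first panel (control at most 0.141%, injured at least 0.947%), and UUO overlaps with control in the others.

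Members were deep barcodes. Their median UMI count was 13257, and per injured library it ran from 10152.5 to 17903, against 3865 to 5815 in immune barcodes of the same libraries and 8312 to 14897 in the cDC2 gate. Members with 7 and 6 rule genes had medians of 17982 and 13992 UMIs, those with 5 and 4 had 4880 and 4663, and those with 3 had 11359.5, so depth did not follow the number of rule genes in one order. No doublet caller was run, and the share of barcodes with 2 cells among the members was not tested.

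The transcription factors and surface molecules that define cDC1 set the members apart from cDC2. These values describe barcodes that were chosen on their own RNA, so no test was made. Of 26 identity genes not used in the gates, 20 were higher in cDC1 than in cDC2 with no overlap over the 6 injured libraries, beside 2.2% of all 16509 genes detected. Only Itgax, which encodes CD11c, went the other way among these genes. Irf8 was at 1152, 1604 and 1495 CPM in the UIR libraries and at 1352, 1136 and 1279 CPM in the UUO libraries. All 6 lay above the cDC2 range of 42.7 to 182 CPM and the macrophage range of 219 to 319 CPM. Batf3, the partner of Irf8 in this lineage, was at 173, 161 and 157 CPM after UIR and at 225, 130 and 130 CPM after UUO, against a cDC2 median of 91.1 CPM. The difference between the gates was thus far smaller for Batf3 than for Irf8. Id2, which holds back the plasmacytoid fate, was at 457 to 705 CPM against a cDC2 median of 237 CPM. Flt3, the receptor of Flt3l and itself a gene of the cDC2 gate, overlapped between the gates (122.5 to 178 CPM against a cDC2 median of 93.3 CPM).

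Surface and vesicle genes of the lineage showed the widest gaps. Itgae was at 134, 180 and 159 CPM after UIR and at 149, 171 and 170 CPM after UUO. It stood at 1.64 to 12.2 CPM in cDC2 and at most 5.86 CPM in macrophages. Rab7b, a regulator of late endosomes, was 32.3-fold higher in cDC1 than in cDC2 by mean CPM, and Ppt1 11.9-fold. In macrophages Rab7b was at 78.5 to 112.5 CPM and Ppt1 at 122 to 199 CPM. Gcsam was at 73.0 to 114 CPM in cDC1 with a median of 0 CPM in cDC2. Cst3, which encodes the protease inhibitor cystatin C, was the most abundant identity gene at 16148 to 23263 CPM and 3.16-fold above cDC2. Tlr11 and Tlr12, sensors of microbial profilin, were at 34.6 to 51.0 and 9.90 to 22.0 CPM, both above the cDC2 range. Cd8a, carried by cDC1 of lymphoid organs, was at 0.736 to 13.5 CPM and overlapped with cDC2. Cxcr3, the receptor of Cxcl9 and Cxcl10, was at 55.9 to 85.2 CPM against a cDC2 median of 1.35 CPM.

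Beyond the lists, genes with at least 100 CPM in the higher gate were ranked by their ratio. Among 1411 such genes, 109 (7.73%) were above cDC2 in all 6 injured libraries without overlap and 134 (9.5%) were below. High ratios besides those of Rab7b, Itgae, Irf8 and Ppt1 included those of the scavenger receptor gene Cd36 (7.38-fold), Cxx1b (7.32-fold), Cxx1a (7.24-fold), Mnda (6.35-fold) and Sept3 (4.66-fold). The inhibitory receptor gene Btla and the costimulatory gene Cd86 were 3.57-fold and 3.14-fold higher in cDC1. On the other side, Fabp5, a fatty acid carrier, was 8.84-fold higher in cDC2 than in cDC1 and Il4i1, an amino acid oxidase of mature dendritic cells, 8.53-fold. Il1b was 5.01-fold higher in cDC2, the integrin gene Itgam 4.15-fold, the mannose receptor gene Mrc1 4.07-fold and S100a4 3.70-fold. Members without a receptor carried 981 CPM of S100a4 and those with one 185 CPM.

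Antigen-presentation genes were compared by class. Of 18 class I pathway genes, 7 were higher in cDC1 than in cDC2 without overlap and none was lower, beside 7.73% higher and 9.5% lower of all genes with at least 100 CPM. These were the peptide transporter genes Tap1 and Tap2, the immunoproteasome genes Psmb8 and Psmb9, its activator Psme1, the small GTPase gene Rab43 and the chaperone gene Pdia3. Psmb9 was at 563, 670 and 626 CPM after UIR and at 752, 592 and 626 CPM after UUO, against a cDC2 median of 264 CPM. The class I heavy chain genes H2-K1 and H2-D1 and their partner B2m overlapped between the gates. Of 10 class II genes, H2-Ob was higher in cDC1, and H2-DMb2, H2-Oa and Ctss were lower. Ctss, which trims the class II chaperone Cd74, was at 557 to 950 CPM against a cDC2 median of 1501 CPM. H2-Aa, H2-Ab1 and H2-Eb1 each stood at 7131 CPM or more in all 6 libraries and overlapped with cDC2.

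The 10 control members together held 145599 UMIs, too few for a test between injury and control, so they were summed. A gene was set apart only where the exact Poisson 95% interval of the summed control count lay outside the range of the 6 injured libraries. Of 185 genes in the 10 functional lists, 4 were below and 5 above that range. Of all 15764 genes detected 0.304% were below and 0.723% above, and of the 2588 genes with at least 50 CPM 1.39% and 1.7%. The list counts come near the latter shares and were not tested against them, so the genes that follow are a description. Itgae had 2 UMIs in the control members, or 13.7 CPM (interval 1.66 to 49.6), while no injured library was under 134 CPM. The chemokine gene Ccl17 had 1 UMI (6.87 CPM, interval 0.174 to 38.3, against 44.9 to 582 CPM), and Ccl5 and Marcksl1 had 0 UMIs (upper bound 25.3 CPM, against at least 30.5 and 33.5 CPM). Above the injured range were Id2, at 941 CPM (790 to 1112), the class II transactivator gene Ciita, the interferon-stimulated gene Ifit2 and the mitosis genes Cenpf and Hmgb2. Irf8 was at 1181 CPM (1011 to 1372) in control members, a level inside the injured range. These intervals cover counting error only, and 10 members from 4 libraries give no estimate of the spread between animals.

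UUO members held less RNA of the proximal tubule than UIR members. Of 8341 genes tested with edgeR's quasi-likelihood test on UMIs summed per library (3 UUO, 3 UIR), 1 was higher after UUO (0.012%) and 46 were lower (0.551%) at an adjusted p under 0.05, and 576 (6.91%) passed an unadjusted p under 0.05. Without the unnumbered UUO library 1 gene was lower, without UUO library 1 it was 10, and without UUO library 2 it was 26. Without the unnumbered UIR library 20 were lower, and without UIR library 2 it was 18. Kap stayed called in each of these fits, but not with at least 2 rule genes in place of 3 (log2 difference -2.81, edgeR adjusted p = 0.101). All 9 genes of the proximal tubule list were among those lower. Some of them, Slc34a1, Miox, Fbp1 and Lrp2 included, entered the test through the UIR libraries, so this count is a description. Kap, an androgen-dependent gene of proximal tubule cells, was at 603, 463 and 395 CPM after UIR and at 24.5, 19.1 and 29.7 CPM after UUO (log2 difference -4.41 ± 0.24 SE). Gpx3, a secreted peroxidase made by the tubule, was at 1553, 424 and 759 CPM against 23.6, 35.3 and 24 CPM (log2 difference -5.08 ± 0.47). Slc34a1, the phosphate transporter of the proximal tubule, stood at 59.4 to 264 CPM after UIR and 1.69 to 2.83 CPM after UUO. The groups did not overlap for Kap or Gpx3. Of the 46 lower genes, 31 stayed under 5 CPM in every UUO library and entered the test through the UIR libraries, so the size of their difference is not given. Slc34a1 was among them, as were Akr1c21, Miox, Fbp1 and Lrp2, which reached at most 1.41 CPM after UUO.

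The same RNA was found outside the members. In barcodes of 10 to 100 UMIs, which hold mostly free RNA, the proximal tubule list summed to 3832 to 13341 CPM after UIR and 2549 to 5595 CPM after UUO. In cDC1 it summed to 1163 to 3254 and 58.2 to 74.9 CPM, and in the macrophage gate to 1435 to 4530 and 307 to 424 CPM. Of the 46 lower genes, 45 were also lower after UUO in the barcodes of 10 to 100 UMIs, and for 45 the UIR level there exceeded that in the members. At least 2 of the 9 genes were detected in 240 of 277 UIR members, 24 of 232 UUO members and all 10 control members. The part of free RNA in these differences was not tested. The exception on level was Fnip2, a folliculin partner, at 41.3, 41.9 and 35.6 CPM after UIR and 12.7, 17.7 and 21.2 CPM after UUO.

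The lower genes also held 3 mitochondrial transcripts of respiratory complex I. mt-Nd4 was at 3882, 3883 and 3152 CPM after UIR and at 1680, 2010 and 2101 CPM after UUO (log2 difference -0.996 ± 0.14, edgeR adjusted p = 0.0136). mt-Nd2 and mt-Nd4l fell by 1.2 and 1.45 on the log2 scale. The mitochondrial share of UMIs had a median of 5.54% in UIR members and 3.77% in UUO members. mt-Nd4 was at 4841 to 6657 CPM in UIR macrophages and 3452 to 3527 CPM in UUO macrophages, so the order was shared by the macrophage gate.

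AA467197, known as Nmes1 (chr2:122636986-122641191 on GRCm38), was the gene that rose after UUO. It encodes a small mitochondrial protein induced in inflammation. Its level was 6.88, 6.86 and 10.7 CPM in UIR members and 44.7, 53.0 and 59.4 CPM in UUO members, with no overlap. The log2 difference was 2.55 ± 0.26 (edgeR adjusted p = 0.00519). Its counts were low in the UIR members, and it entered the test through the UUO libraries, so the size of the difference is uncertain. Requiring Xcr1 or Clec9a gave 3.17 (edgeR adjusted p = 0.0294), while dropping the C1q limit gave 1.37 (edgeR adjusted p = 0.773) and leaving out the barcodes of highest UMI totals 1.39 (edgeR adjusted p = 0.700). With Xcr1 or Clec9a required and no C1q limit it was 0.64 (edgeR adjusted p = 0.9997), and with at least 4 rule genes required AA467197 was not among the genes tested. In cDC2 it stood higher in general, at 47.5 to 149 CPM after UIR and 148 to 155 CPM after UUO, and in macrophages at 8.89 to 53.2 and 66.0 to 94.2 CPM. Pooled over the injured libraries, AA467197 was at 22.5 CPM in members with a receptor and 56 CPM in those without, which were more frequent after UUO. The control members had 2 UMIs (13.7 CPM, 1.66 to 49.6).

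**Figure D4:**
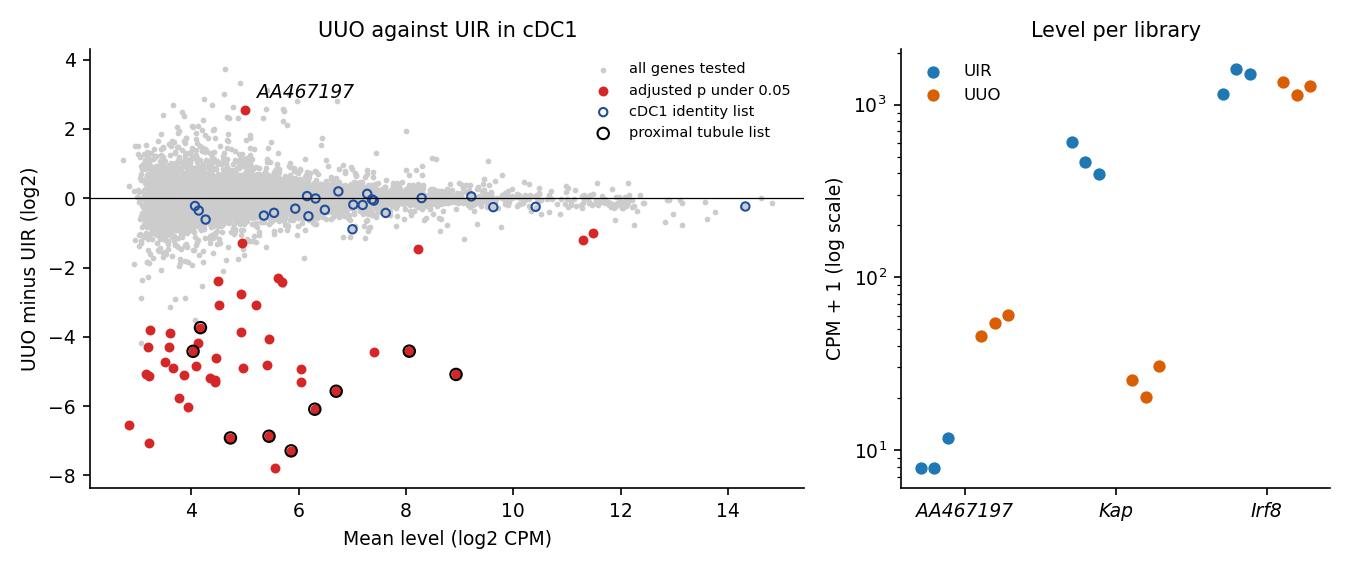
Left, mean level (log2 CPM) against the UUO minus UIR difference (log2) for 8341 genes in cDC1, with 47 genes past an adjusted p of 0.05 in red, the cDC1 identity list in blue circles and the proximal tubule list in black circles. Right, CPM + 1 on a log scale for AA467197, Kap and Irf8, 1 point per library (3 UIR, 3 UUO), where AA467197 is higher and Kap lower after UUO and Irf8 overlaps.

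No gene tested from the cDC1, antigen-presentation or T cell signal lists passed between UUO and UIR. Of the 21 T cell signal genes 11 were tested and 10 were not. Of 23 identity genes tested 0 were called, 3 had an unadjusted p under 0.05 and 5 had a positive difference. Over all genes tested these shares were 0.563%, 6.91% and 50.9%. The median log2 difference was -0.24, beside 0.01 over all genes tested. Irf8 differed by -0.25 ± 0.17 and Cst3 by -0.24 ± 0.19 on the log2 scale. Cd36 was at 140, 163 and 167 CPM after UIR and 98.7, 82.4 and 84.8 CPM after UUO, which did not overlap (log2 difference -0.90 ± 0.17, edgeR adjusted p = 0.0668). The median was -0.05 over 10 class II genes and 0.04 over 18 class I genes. H2-Ab1 differed by -0.15 ± 0.14 and H2-K1 by 0.08 ± 0.15. A p that misses the threshold does not show that the groups were alike.

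Higher after UUO but short of the threshold were S100a6, S100a4 and Ifitm2. S100a6 was at 584, 390 and 391 CPM after UIR and 789, 1176 and 1055 CPM after UUO (log2 difference 1.06 ± 0.20, edgeR adjusted p = 0.0520). S100a4 differed by 1.16 ± 0.23 and Ifitm2 by 0.93 ± 0.18 (edgeR adjusted p = 0.0707 for both). With DESeq2 10 genes were higher after UUO, among them S100a4, S100a6, Ifitm2 and Fabp5. The groups did not overlap for S100a6, S100a4 or Ifitm2. S100a4 stood higher in members without a receptor, which were more frequent after UUO. Among members with a receptor it was at 164, 33.7 and 67.3 CPM after UIR and 181, 425 and 340 CPM after UUO, and among those without at 764, 827 and 780 CPM against 1531, 991 and 1061 CPM, so the injuries did not overlap in either set. The cDC2 gate held S100a4 at 1095, 836 and 1066 CPM after UIR and 1410, 1765 and 1751 CPM after UUO. The macrophage gate held it at 64.5, 51.8 and 64.1 CPM against 149, 102 and 121 CPM. The higher level after UUO was thus not particular to cDC1.

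Genes of dendritic cell maturation and migration were low and uneven. Of 14 tested among 21, none was called and 11 had a positive difference, beside 50.9% of all genes tested. Their median was 0.60 on the log2 scale, and 9 had an unadjusted p under 0.05, beside 6.91% of all genes tested. In the lists of other dendritic cells no gene was called higher after UUO. Of 9 cDC2 genes 9 had a positive difference (median 0.49, 3 at an unadjusted p under 0.05). Of 7 genes of plasmacytoid dendritic cells 6 were positive (median 0.85 over the 7, of which 6 had an unadjusted p under 0.05). Klk1 of that list, counted among these 6, was called lower after UUO (log2 difference -2.40, edgeR adjusted p = 0.0367). It was also lower after UUO in the barcodes of 10 to 100 UMIs (-0.95), the macrophage gate (-2.96) and the cDC2 gate (-1.04). Its UIR level in the barcodes of 10 to 100 UMIs exceeded that in the members. The part of free RNA in the Klk1 difference was not tested. The maturation list summed to 497, 483 and 495 CPM after UIR and 1183, 1060 and 514 CPM after UUO in members with a receptor, and to 623 to 1364 and 1097 to 2239 CPM in those without, which were more frequent after UUO. The part of these cells in the shift was not tested. Ccl17, a chemokine for CCR4-bearing T cells, was at 223, 44.9 and 47.0 CPM after UIR and 499, 582 and 105 CPM after UUO, and the groups overlapped. Ccl5 was at 45.4, 30.5 and 37.0 CPM against 147, 190 and 41.0 CPM, with UUO library 2 next to the UIR libraries (log2 difference 1.74 ± 0.45, edgeR adjusted p = 0.257). With Xcr1 or Clec9a required Ccl5 was called (log2 difference 2.12, edgeR adjusted p = 0.0369). UUO library 2 held the lowest Ccl5 of the 3, so leaving it out raises the difference by that choice (2.14, edgeR adjusted p = 0.00527). Ccr7, Il12b and Ccl4 were also tested and called in that fit, which they entered through the UUO libraries that remained, where they were high. The calls in that fit are a description. Ccr7, the receptor that guides mature dendritic cells to lymph nodes, was at 0, 0.762 and 0 CPM after UIR and 21.9, 14 and 1.41 CPM after UUO, and was too low for the test over all 6 libraries. Il12b, the shared subunit of IL-12 and IL-23, was at 0 CPM in all UIR libraries and in UUO library 2, and at 38.0 and 86.9 CPM in the other two UUO libraries. Ccl4 followed the same libraries, at 43.9 and 83.2 CPM.

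A mature state was also counted per barcode, as at least 3 of 8 genes (Ccr7, Fscn1, Ccl22, Socs2, Cacnb3, Nudt17, Il4i1, Relb). It was met by 1.96%, 1.59% and 2% of UIR members and by 5.56%, 5.88% and 2.5% of UUO members, which is 5 and 12 barcodes in all. The difference was 2.80 percentage points (exact permutation p = 0.1, the smallest possible). After each barcode was thinned to 1000 UMIs, 1 UIR and 1 UUO barcode met it, too few to compare the injuries at equal depth. Thinned shares of the mature state were lower in cDC1 (mean 0.320%) than in cDC2 (2.76%) in 6 of 6 injured libraries. The exact paired permutation test gave p = 0.0313, the smallest possible (adjusted over 4 comparisons 0.0625), from 0 or 1 cDC1 and 1 to 3 cDC2 barcodes per library. Both gates were chosen on the RNA of the barcodes, and the part of that choice in the difference was not tested.

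Interferon-stimulated genes varied more between libraries than between injuries. None of 19 genes was called and 16 had a positive difference, beside 0.563% and 50.9% of all genes tested. The median was 0.37 on the log2 scale, beside 0.01 over all genes tested. In the unnumbered UIR library the list summed to 388 CPM in cDC1, against 1432 and 1242 CPM in the other two UIR libraries and 1231, 2203 and 1042 CPM after UUO. Isg15, a ubiquitin-like protein, was at 20.6, 177 and 165 CPM after UIR and 176, 300 and 127 CPM after UUO. Rsad2, which encodes the antiviral enzyme viperin, was at 2.75, 89.1 and 65.5 CPM after UIR and 64.9, 109 and 130 CPM after UUO. The unnumbered UIR library was lowest in both. The same library had 819 CPM of the list in cDC2 and 825 CPM in macrophages, where the other injured libraries ran from 564 to 1110 and from 1054 to 1716 CPM.

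The Cxcr3 ligands Cxcl9 and Cxcl10, which draw in T cells, also split by library. Cxcl9 was at 13.8, 557 and 231 CPM after UIR and 272, 167 and 29.7 CPM after UUO. Cxcl10 was at 1.38, 161 and 120 CPM after UIR and 159, 92.0 and 0 CPM after UUO. The unnumbered UIR library and UUO library 2 were low in both genes, and these are also the libraries with the fewest members (51 and 40). Members without Xcr1 and Clec9a had more interferon-stimulated RNA than those with, at 2540 against 1249 CPM in UIR library 1 and 4196 against 1481 CPM in UUO library 1. Ifi205, one of the rule genes, is itself induced by interferon. The part of the rule in this difference was not tested.

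**Figure D5:**
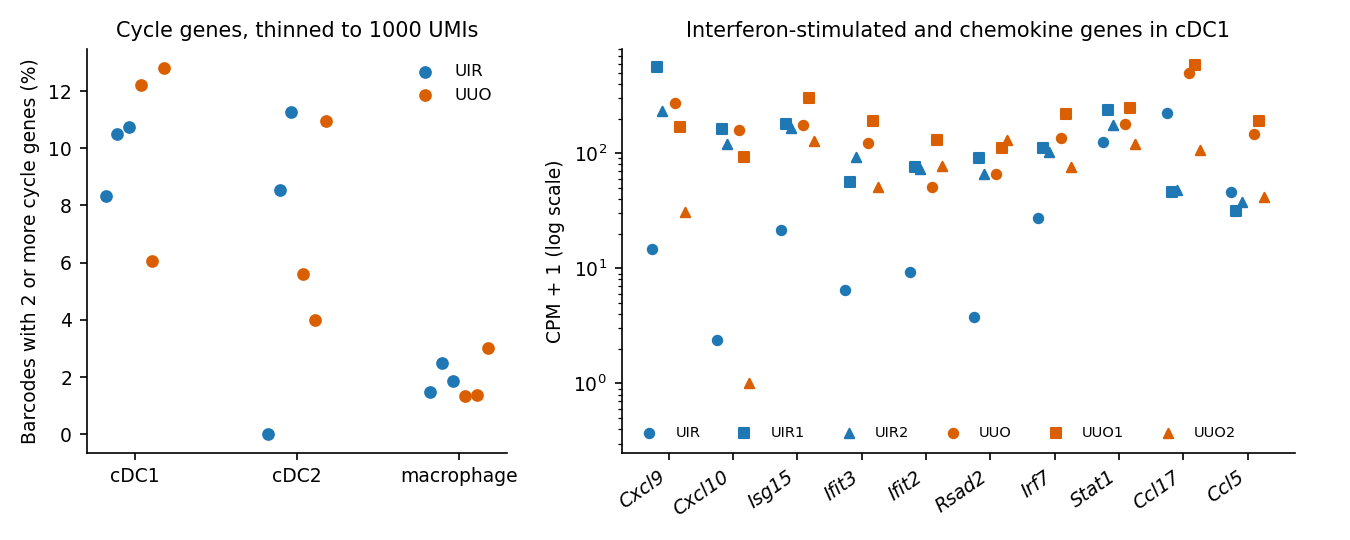
Left, percentage of barcodes with at least 2 of 12 cell cycle genes after thinning to 1000 UMIs, in the cDC1, cDC2 and macrophage gates, 1 point per injured library (UIR blue, UUO orange). Right, CPM + 1 on a log scale of 8 interferon-stimulated or Cxcr3 ligand genes and the chemokines Ccl17 and Ccl5 in cDC1, with a symbol per library. cDC1 lie above macrophages in all 6 libraries, and the unnumbered UIR library (blue circle) is lowest for Isg15, Ifit3, Ifit2, Rsad2 and Irf7.

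RNA of cell cycle genes was detected in a part of the members. The 21 cycle genes of the list summed to 2711 to 4805 CPM in cDC1 of the injured libraries. In the low-count barcodes that hold mostly free RNA they summed to 781 to 4836 CPM. UIR library 2 was higher there than in its cDC1 (4836 against 3540 CPM), and every other injured library was lower. The part of free RNA in the cycle shares was not tested. At least 2 of 12 cycle genes were detected in 27.5%, 23.8% and 17.0% of UIR members and 26.7%, 14.7% and 22.5% of UUO members, and in 3 of the 10 control members. Thinned to 1000 UMIs, the shares were 8.33%, 10.5% and 10.8% after UIR and 12.2%, 6.06% and 12.8% after UUO. The injuries overlapped in both (exact permutation p = 0.7 and 0.9). At equal depth the mean share was 10.1% ± 2.53 (SD, n = 6) in cDC1, 6.72% ± 4.37 in cDC2 and 1.93% ± 0.685 in macrophages. cDC1 lay above macrophages in 6 of 6 libraries (exact paired permutation p = 0.0313, adjusted 0.0625) and above cDC2 in 5 of 6 (p = 0.0625 in the exact permutation test, adjusted 0.0833). All 3 gates were chosen on the RNA of the barcodes, and the part of that choice in these differences was not tested. Thinning left out 17 members with under 1000 UMIs, 12 UIR, 4 UUO and 1 control. In the injured libraries 96.9% of 509 cDC1 and 99.3% of 449 cDC2 barcodes had 1000 UMIs, against 60.4% of 6149 macrophage barcodes (47.8% to 70.1% per library), so the macrophage share covers the deeper barcodes alone. Mki67, a marker of cycling cells, was at 129, 217 and 135 CPM after UIR and 107, 53.0 and 72.1 CPM after UUO, and the groups did not overlap (log2 difference -1.12 ± 0.30, edgeR adjusted p = 0.288). None of the 21 cycle genes was called, beside 0.563% of all genes tested. A positive difference was found in 5 of them, beside 50.9% of all genes tested, and their median was -0.29.

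Sensing, adhesion and immediate early genes showed no call between the injuries either. The medians were 0.14 over 14 sensing genes, 0.37 over 15 adhesion and chemotaxis genes and 0.50 over 14 immediate early genes. An unadjusted p under 0.05 was reached by 5 immediate early, 3 adhesion and 0 sensing genes. Of all genes tested 0.563% were called and 6.91% had an unadjusted p under 0.05. The immediate early list summed to 1332 to 1424 CPM after UIR and 1622 to 1702 CPM after UUO, and the adhesion and chemotaxis list to 1448 to 1521 and 1623 to 1748 CPM, both without overlap. Ccr2, a receptor for entry from blood, was at 510 to 667 CPM in cDC1 and overlapped with cDC2. Unc93b1, which carries Tlr3 to the endosome, was at 330 to 423 CPM. Klf2, a regulator of lymphocyte trafficking, was at 165, 78.5 and 94.7 CPM after UIR and 180, 178 and 212 CPM after UUO, without overlap (log2 difference 0.70 ± 0.25, edgeR adjusted p = 0.571). Junb was at 168 to 199 CPM after UIR and 221 to 251 CPM after UUO, without overlap and without a call. Even without overlap, 3 against 3 libraries cannot go below an exact permutation p of 0.1. Immediate early genes also respond to dissociation, and the part of handling was not tested.

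Whether UUO and UIR differed in another way in cDC1 than in cDC2 was tested with an interaction term, with the library as a block. None of 8396 genes passed in edgeR (0%), and 464 had an unadjusted p under 0.05. The smallest p belonged to Aplp2, an amyloid precursor relative, with a log2 difference of 0.94 in cDC1 and -0.35 in cDC2 (interaction 1.25 ± 0.19, edgeR adjusted p = 0.243). Ccl17 followed, with 1.94 in cDC1 and -0.46 in cDC2 (interaction 2.75 ± 0.42, edgeR adjusted p = 0.243). AA467197 had 2.55 and 0.47 (interaction 1.92, edgeR adjusted p = 0.518). In cDC2 alone, 15 of 7269 genes (0.206%) were called between the injuries.

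The ligands that feed and attract cDC1 were measured in all other barcodes of each library, summed. More cells of a type and more RNA per cell cannot be told apart in such sums. Xcl1, the Xcr1 ligand, was at 4.33, 4.78, 0.659, 5.12 and 5.47 CPM in the controls, at 13.9, 16.5 and 23.2 CPM after UIR and at 25.6, 14.6 and 12.4 CPM after UUO. All injured libraries lay above all controls. The log2 difference from control was 1.70 ± 0.38 for UIR and 1.62 ± 0.38 for UUO (edgeR adjusted p = 0.00156 and 0.00183), in fits where 62.4% and 71.9% of 16444 genes were called. Flt3l was at 1.10 to 2.47 CPM in control, 5.40 to 6.93 CPM after UIR and 7.77 to 10.3 CPM after UUO, a log2 difference of 1.54 ± 0.20 and 2.04 ± 0.20. Ifng, made by T and NK cells, passed for UIR (log2 difference 1.6, edgeR adjusted p = 0.0243) and not for UUO (1.02, edgeR adjusted p = 0.129), and the difference between the injuries was not called (-0.58, edgeR adjusted p = 0.490). UIR library 2 stood apart at 7.64 CPM, and without it the UIR difference was 0.56 (edgeR adjusted p = 0.34). The call was also lost without control N1, N2 or AN2 (edgeR adjusted p = 0.0518 to 0.0524), and UUO passed without the library labelled Ctrl (1.69, edgeR adjusted p = 0.0266) or without UIR library 2 (1.04, edgeR adjusted p = 0.0419). With most genes called in these fits, the calls are not particular to the ligands.

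Csf1 and Il34, ligands of the macrophage receptor Csf1r, rose as well. Csf1 was at 7.0 to 10.4 CPM in control, 22.1, 24.6 and 29.0 CPM after UIR and 34.4, 42.5 and 38.3 CPM after UUO. Il34 was at 10.3 to 13 CPM in control, 36.0 to 39.4 CPM after UIR and 24.5 to 36.1 CPM after UUO. The log2 differences from control were 1.09 ± 0.12 and 1.63 ± 0.12 for Csf1, and 1.31 ± 0.12 and 0.96 ± 0.13 for Il34, for UIR and UUO (edgeR adjusted p at most 1.54e-05). Csf2 was at most 0.407 CPM in any library and was not tested.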

How the data were processed

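Per the labels, 11 mouse kidney libraries (5 control, 3 UIR, 3 UUO) were analysed. The authors deposited raw UMI counts per gene and barcode for all barcodes of the instrument's list, on mm10. The submitters' processing notes name Cell Ranger 3.1.0. No ambient RNA correction or doublet removal is visible in these counts, and no doublet caller was run here. The members, gene lists and tests were chosen with earlier results of these data known.

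UMIs were summed over members per library and given as CPM. Pools of at least 10 members were tested with edgeR 4.0.16 (filterByExpr, TMM, quasi-likelihood test, Benjamini-Hochberg, threshold 0.05), with DESeq2 1.42.0 as an alternative. No control library reached 10 members, so controls entered no gene test. Shares were compared with exact two-sided permutation tests over libraries (scipy 1.17.1). Where UUO and UIR are said not to overlap, 3 against 3 libraries cannot go below an exact permutation p of 0.1. The share of all genes without overlap between UUO and UIR is not given. The cDC2 gate needed at least 3 of 7 cDC2 genes, the same exclusions, Cd74 and fewer than 3 cDC1 rule genes. Thinning drew UMIs without replacement with a fixed seed. The code was tested on simulated data.

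Named genes were those of the lists that passed the test plus up to 6 per list by mean CPM, up to 15 per direction by size of difference (UUO against UIR, at least 50 CPM, no overlap), up to 20 above and 10 below by the cDC1 to cDC2 ratio (at least 100 CPM), and 5 per direction by interaction p. Other list genes, the genes set apart in counts, mt-Nd2, mt-Nd4, mt-Nd4l, Fnip2, S100a6 and Ifitm2 were named after their values were seen. Coordinates are from GENCODE M21. The alternatives tried are given in the closing section. Replicate names (unnumbered, 1, 2) were shared by UIR and UUO, and the labels do not say whether libraries of the same name belong together. The comparison of states between gates was added after seeing the data. Some genes are not reported here.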

Additional observations from a re-analysis of the deposited data

Results flagged for a closer look

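In 12 sets of control values examined for a library far from the others, 3 were found, where chance alone flags about 1 in 20. The library labelled Ctrl kept 3525 barcodes, where the other controls kept 2010 to 2133. Control N2 had 0.659 CPM of Xcl1 outside the members, against 4.33 to 5.47 CPM in the other controls. The library labelled Ctrl had 1.99 CPM of Ifng outside the members, against 0.319 to 0.714 CPM in the others.

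Between the injuries, Csf1 outside the members differed, with a UUO effect 0.54 larger than the UIR effect on the log2 scale (± 0.13 SE, edgeR adjusted p = 0.00792). In the same fit 26.6% of all genes were called, so the call is not particular to Csf1. It was higher in 3 of 3 UUO libraries than in every UIR library. The part of cell composition in this difference was not tested.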

How the results depend on the processing

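Of the comparisons rerun under the alternatives, 205 values were labelled the same, 18 stronger, 21 weaker, 4 moved and 13 reversed. For a share against control under another setting, the same meant the same direction and side of an unadjusted 0.05. For UUO against UIR shares, states and shares with 1 library left out, it meant the same direction and a change under 1 SD. No p was computed for a share or state with 1 library left out. Among single genes 1609 stayed, 46 became stronger and 40 weaker. Another 135 values of 38 results changed sign without passing the test in either fit, Ifng between UUO and UIR among them. The cause of each change was not tested. The setting with Xcr1 or Clec9a required and no C1q limit was chosen after seeing the data. The share of barcodes kept stayed above control in every alternative run for both injuries. UUO minus UIR in that share was -0.539 with a mitochondrial limit of 15%, 0.642 with at least 2 rule genes, -0.0882 with at least 4 and -0.114 with Xcr1 or Clec9a required (-0.114 also without the C1q limit), and -0.124 to 0.316 with 1 library left out. In the share of immune barcodes, UIR minus control was 3.55 with 2 rule genes (exact permutation p = 0.25) and 1.69 after thinning to 500 UMIs (exact permutation p = 0.143). Both fell short of the unadjusted threshold that this difference passed as reported. In the same share, UUO minus control was 2.77 without the highest UMI totals (exact permutation p = 0.0357). That setting trimmed the members alone, and the kept, immune and cDC2 barcodes stayed as they were. Members fell from 10 to 2 in control, from 277 to 202 in UIR and from 232 to 166 in UUO. In the dendritic share, UIR minus control, with an unadjusted exact permutation p of 0.0357 as reported, missed an unadjusted 0.05 with a mitochondrial limit of 15% (26.3), 2 rule genes (12.2), 4 rule genes (21.2), no C1q limit (12.9), Xcr1 or Clec9a required (29.4; 9.21 with no C1q limit as well) and the highest UMI totals left out (45.5), and ran from 24.8 to 37.3 with 1 library left out. UUO minus control reversed to -0.838 with both changes of the rule, and UUO minus UIR to 12.8 after thinning to 500 UMIs. Dropping the C1q limit also dropped it from the cDC2 gate of this share. The thinned dendritic share against control gave no value, as too few libraries held 5 barcodes. The cycle share, UUO minus UIR, was 0.511 when thinned, 3.43 with Xcr1 or Clec9a required and -4.34 to 1.83 with 1 library left out, and the mature share was 0.102 when thinned, from 1 barcode in each injury.

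Genes higher after UUO numbered 1, and 92 without a filter on low counts, 10 with DESeq2, 4 with a mitochondrial limit of 50%, 154 with 2 rule genes, 0 with 4, 3 with Xcr1 or Clec9a required, 0 with no C1q limit as well, and 1 to 6 with 1 library left out. Genes lower after UUO numbered 46, and 175 without a filter, 63 with DESeq2, 11 and 83 with mitochondrial limits of 15% and 50%, 523 with 2 rule genes, 16 with 4, 24 with Xcr1 or Clec9a required, 25 with no C1q limit as well, 10 without the highest UMI totals, and 1 to 54 with 1 library left out. The interaction called 157 genes without a filter and 0 to 1 with 1 library left out. Ligands called between UUO and UIR numbered 1 to 2 with 1 library left out.

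Deviations of same-numbered UIR and UUO libraries correlated at r = 0.149, 0.0864 and -0.170, within the range of differently numbered pairs (-0.269 to 0.271). These few values cannot show whether the numbers pair the libraries. A replicate block gave 2 genes higher and 42 lower, of which 38 were among those called without it. The fit with controls was not run, since no control library held 10 members. The small number of control members, 10 in all, leaves wide intervals on their values.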
